A study of Rattus norvegicus with 4 samples.

Results

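Oxidative phosphorylation is the last stage of respiration in mitochondria. Complexes I and II pass electrons to ubiquinone, complex III passes them on to cytochrome c, and complex IV hands them to oxygen, while complexes I, III and IV pump protons and complex V, the ATP synthase, uses the proton gradient to make ATP. Most subunits are encoded in the nucleus, and a few, including the catalytic core of complex IV, in mitochondrial DNA. In the mammary gland these genes are active in secretory epithelium, and other cells of a tumour carry them too.

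The genes were chosen by a rule on the symbol, with earlier results of these data known. They were Nduf genes, the 4 Sdh subunit genes, Uqcr genes and Cyc1, nuclear Cox genes numbered 4 to 8, and Atp5 genes. The rule found 97 probe sets of 87 genes, among 14217 genes with a probe set naming 1 gene. It takes in more than subunits, namely the 6 Ndufaf genes, which encode assembly factors of complex I, the pseudogene Cox6c-ps1, and Atp5if1, an inhibitor of the ATP synthase. Ndufa4 and Ndufa4l2 were placed with complex IV, where Ndufa4 protein is found. Probe sets that name several loci were left out. There were 7 of these, for Atp5mc1, Atp5mc2, Cox5a, Cox7a2, Ndufa10, Ndufs5 and Uqcrb, each paired with a near copy, and of these genes only Cox5a had another probe set.

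Transcripts were measured in 4 mammary cancers of female Sprague-Dawley rats, an outbred stock, all from animals given 0.5 Gy of carbon ions (290 MeV/u) to the whole body at 7 weeks of age and a diet with 23.5% corn oil after 9 weeks. Each tumour has 1 array and all belong to 1 group, so the comparison is between tumours, no difference has a replicate check, and no test was run. Whether any of them arose in the same rat is not stated, and no value here measures an effect of radiation or diet. Values are log2(signal + 16) as deposited unless said otherwise, and an SD is the spread over the 4 tumours.

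Of the 87 genes, 79 passed a level filter, a mean at or above 7.81 log2, which is the median of all probe sets and a signal of about 209. The 8 others were Cox4i2, Cox6a2, Cox6b2, Cox6c-ps1, Cox7a1, Cox7b2, Cox8b and Ndufaf1. Most of the 79 gave strong signals, with a median level of 11.48 and quartiles of 10.71 and 12.10, and 73 of them (92.4%) lay in the brighter 25% of probe sets, as did 58.8% of all genes past the filter. The share of the arrays' summed signal that the 87 genes took was 1.15%, 1.44%, 1.39% and 1.27% in tumours 1 to 4. Luminal marker genes, such as keratin and claudin genes, passed the filter in 13 of 15 cases, all but Esr1 and Foxa1, where 9403 of all 14217 genes passed. Fibroblast, macrophage and basal markers passed in 9 of 9, 9 of 10 and 8 of 9 cases, and lymphocyte and adipocyte markers in 2 of 7 and 2 of 9. A high count was thus not particular to luminal markers.

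The upstream sequences of 78 of the 87 genes were found in the RefSeq promoter table of assembly GRCr8, which holds 250 bases before and 50 after each start. Letters of binding motifs of factors known to act on respiratory genes were searched on both strands. The YY1 letters AANATGGC were in 32 of 78 members (41.0%) and in 6.96% of all 33469 promoters. The ETS/GABP letters CCGGAAG were in 22 members (28.2%), against 8.75% of all promoters, and the NRF1 core CGCATGCG was in 8 (10.3%), against 1.66%. Among promoters of protein-coding genes the shares of YY1, ETS/GABP and NRF1 letters were 7.67%, 10.7% and 2.11%. The Sp1 letters GGGCGG were in 34 members (43.6%) and 33.1% of all promoters, or 41.8% of those of protein-coding genes. The letters CAAGGTCA, a site of oestrogen-related receptors, were in 3 members (3.85%) and 1.52% of all promoters, or 1.26% of protein-coding ones. None of these letter strings contains another, but the YY1 letters contain an ATG, and 19 of their 32 matches lie after the transcription start, where a start codon can fall. A match is a description of the letters and shows no binding.

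The windows below show such matches in members that the results turn on, with the motif, or its complement, in capitals. Each is 30 bases, 5′ to 3′ on the gene's strand, from RefSeq assembly GRCr8.
Uqcrc1, NRF1 letters, chr8:118468174-118468203, plus strand: actccaccctgCGCATGCGtagcgcggctt
Ndufaf4, NRF1 letters, chr5:43401627-43401656, plus strand: gcagtagtccgCGCATGCGcccctgtggaa
Ndufaf5, NRF1 letters, chr3:147961587-147961616, plus strand: agtccctttggCGCATGCGcacaatagaaa
Ndufs1, YY1 letters, chr9:72073616-72073645, minus strand: tagccgtggccGCCATATTgacttagcggc
Sdhb, YY1 letters, chr5:158547940-158547969, plus strand: cgtcaggagccAAAATGGCggcggtggtcg
Uqcrc1, YY1 letters, chr8:118468211-118468240, plus strand: acggaagttagAAGATGGCggcgtccgcag
Atp5f1b, YY1 letters, chr7:1100066-1100095, plus strand: acccggactccGCCATGTTgagtcttgtgg
Ndufa4l2, YY1 letters, chr7:65242157-65242186, plus strand: gacactggaacAAGATGGCaggaaccagtc
Cox4i1, ETS/GABP letters, chr19:65630375-65630404, plus strand: accgtcttgctCTTCCGGtgcgggacccgc
Sdhd, ETS/GABP letters, chr8:59850671-59850700, minus strand: ccacctcctgcCTTCCGGttcactcttgag

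In each of the 5 complexes most genes were lowest in tumour 1 and most peaked in tumour 2 or 3, by small steps. No single order of the tumours held for most members. The commonest, tumours 1, 4, 3 and 2 from low to high, was that of 24 members (30.4%, against 8.16% of all genes). The count of peaks in tumour 3 depended on scaling, as given below. Among the 79 members, 55 were lowest in tumour 1 (69.6%), where 36.2% of all genes past the filter were lowest. Tumour 2 held the highest value of 47 members (59.5%, against 26.4% of all genes). Tumour 3 held that of 24 (30.4%, against 24.5%). Only 2 members peaked in tumour 1, both of them assembly factors (2.53%, against 28% of all genes), and 6 peaked in tumour 4 (7.59%, against 21.1%). The lowest value lay in tumour 4 for 18 members (22.8%, against 25.1%), in tumour 3 for 5 (6.33%, against 21.1%) and in tumour 2 for 1 (1.27%, against 17.6%).

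Set against each other in pairs, the tumours differed as follows. Tumour 2 was above tumour 1 in 73 of 79 members (92.4%), against 55.9% of all genes, and the median difference was 0.32 log2, a 1.25-fold higher signal, against 0.06 over all genes. Tumour 3 was above tumour 1 in 71 members (89.9%, against 54.8%), by a median of 0.33. Tumour 4 was above tumour 1 in 60 (75.9%, against 52.4%). Tumours 2 and 3 were above tumour 4 in 68 and 62 members (86.1% and 78.5%), against 55.4% and 55% of all genes. Tumours 2 and 3 were the closest, with a median difference of 0.06 and tumour 2 above in 52 members (65.8%, against 51.9%).

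**Figure D1:**
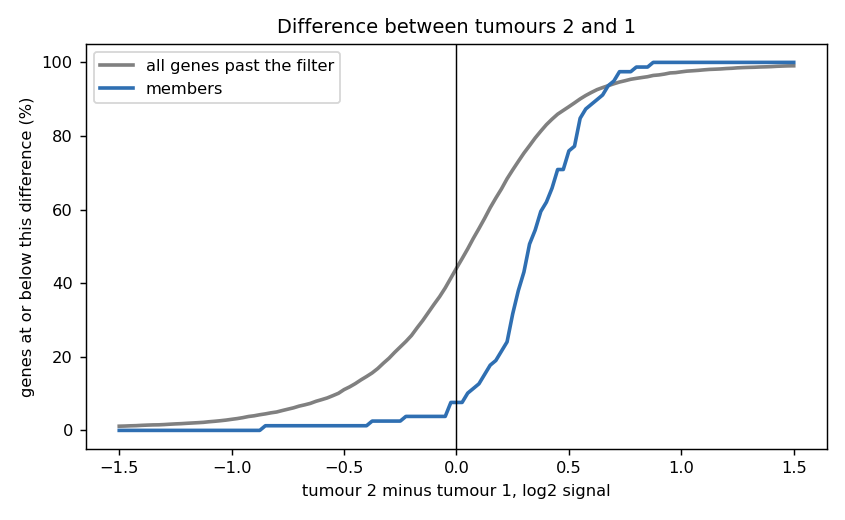
Cumulative share of genes (%, y axis) by the difference of tumour 2 minus tumour 1 (log2 signal, x axis), for the 79 members past the level filter and for all 9403 genes past it, from 1 array per tumour. The members' curve lies to the right of zero for 73 of 79 genes, with a median of 0.32 against 0.06.

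The 6 members that were not higher in tumour 2 than in tumour 1 were Ndufa5, Ndufv3 and Atp5pf, at -0.04, -0.03 and -0.05 log2, the assembly factors Ndufaf5 and Ndufaf8, and Ndufa4l2. The largest difference was that of Ndufb1, at 0.85 log2 or 1.81-fold.

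Although most members shared their lowest tumour, the spread was small. The median SD of members was 0.20 log2, close to the 0.21 of all genes. Only Ndufa4l2 among the 79 had a 2-fold range between its highest and lowest tumour (1.27%), whereas 12.4% of all genes did. Ndufa4l2 passed the filter only through tumour 4, where it was highest, since its mean over the other 3 was 7.75, so this count supports nothing about the members. A range of at least 0.5 log2, about 1.41-fold, was found in 30 members (38.0%) and in 45.7% of all genes. The smallest range, 0.07, was that of Ndufv3, a small complex I subunit, but its second probe set past the filter gave 8.22, 8.14, 7.83 and 8.54, a range of 0.71, so how even this gene was is uncertain.

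To set aside offsets of whole arrays, each tumour's value was compared with the mean of the other 3, and the same median over all genes was subtracted. This corrected deviation was -0.22 log2 in tumour 1, 0.14 in tumour 2, 0.10 in tumour 3 and -0.09 in tumour 4. Each value depends on the tumours it is set against. Without tumour 1 those of tumours 2, 3 and 4 were 0.08, 0.06 and -0.17, and without tumour 2 those of tumours 3 and 4 were 0.17 and -0.02. Without tumour 3 those of tumours 2 and 4 were 0.20 and -0.02. After quantile normalization, which gives all arrays the same distribution, they were -0.15, 0.11, 0.04 and -0.03 in tumours 1 to 4. The order of the tumours was thus kept while the deviations shrank, and in tumours 3 and 4 they shrank by more than 1.5 times. Quantile normalization left 50 members lowest in tumour 1 (63.3%, against 36.95% of all genes) and 49 highest in tumour 2 (62.0%, against 26.9%). It lowered those highest in tumour 3 from 24 to 13 (16.5%, against 23.1%), so the members' share there fell below that of all genes.

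**Figure D2:**
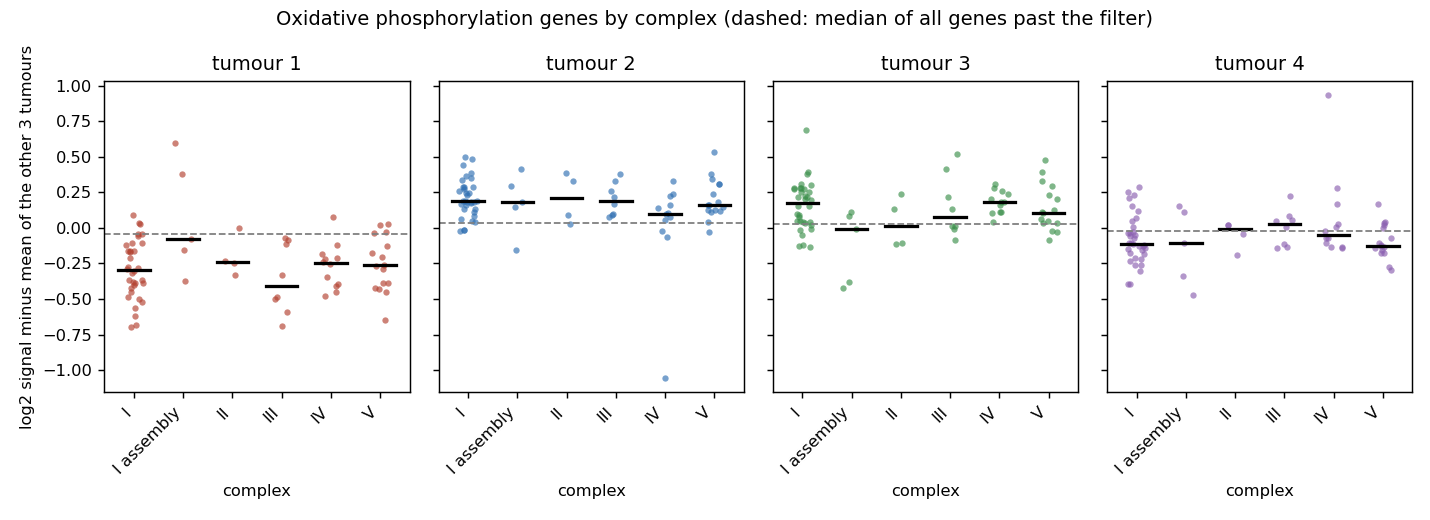
Log2 signal of each member past the filter minus its mean in the other 3 tumours (y axis), by complex (x axis) and tumour (panels). Points are genes, black bars medians and the dashed line the median of all 9403 genes; the bars of complexes I to V lie below that line in tumour 1 and above it in tumour 2.

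Complex I oxidises NADH and is the largest of the chain. All 34 of its subunit genes passed the filter. Its corrected deviations were -0.25, 0.15, 0.14 and -0.09 log2 in tumours 1 to 4, with 22 genes lowest in tumour 1 and 22 highest in tumour 2. Quantile normalization changed little here, with -0.23, 0.12, 0.10 and -0.06, and 22 genes lowest in tumour 1 and 23 highest in tumour 2. Ndufb1, an accessory subunit of the membrane arm, had the largest SD. It measured 10.90, 11.75, 11.71 and 11.33 in tumours 1 to 4 (SD 0.40), with tumour 1 below the others and tumours 2 and 3 nearly equal. Ndufab1, the mitochondrial acyl carrier protein, measured 10.27, 11.05, 10.92 and 10.53 (SD 0.36). Its order of tumours was the same as that of Ndufb1. Ndufa3, a membrane arm subunit, differed from both, at 10.73, 11.08, 11.53 and 10.72 (SD 0.38), and was high in tumour 3 and equally low in tumours 1 and 4.

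The subunits of complex I, electron-carrying or not, did not all move alike. Ndufv1, which binds NADH and flavin, measured 11.10, 11.53, 11.53 and 11.13, so that tumours 2 and 3 were together above tumours 1 and 4. Ndufv2, an iron-sulphur subunit beside it, measured 10.96, 11.52, 11.77 and 11.65, with tumour 1 alone low. Ndufs1, the largest iron-sulphur subunit, measured 10.12, 10.24, 10.19 and 10.07 and varied little (SD 0.07). Ndufs3, of the arm that leads to ubiquinone, measured 10.23, 10.90, 10.74 and 10.23. It was low in tumours 1 and 4 and higher in the other pair. Ndufb10 and Ndufb7 were among 4 complex I genes that peaked in tumour 4, with Ndufb10 at 10.83, 11.33, 11.25 and 11.43. Ndufa8, a membrane arm subunit, was at 10.70, 10.97, 10.69 and 10.79 and was high in tumour 2 alone. In tumour 1 only 3 of the 34 genes, Ndufa5, Ndufb2 and Ndufv3, exceeded their mean over the other tumours, and Ndufb2 measured 11.48, 11.52, 11.41 and 11.26.

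A grouping by arm, made after the values were seen, gave similar deviations for 15 genes of the arm that reaches into the matrix and 18 of the membrane arm. They were -0.25 and -0.20 in tumour 1, 0.15 and 0.15 in tumour 2, 0.16 and 0.07 in tumour 3, and -0.05 and -0.10 in tumour 4.

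The assembly factors of complex I help to build the complex and are not part of it. Of 6, 5 passed the filter, and 2 of these had an order of tumours unlike that of the subunits. Ndufaf5, which hydroxylates Ndufs7 during assembly, measured 8.80, 8.57, 8.04 and 8.00 (SD 0.40) and was highest in tumour 1. Ndufaf8, a partner of Ndufaf5, measured 9.15, 8.75, 8.57 and 8.98 (SD 0.25) and was also highest in tumour 1. These 2 were the only members past the filter that peaked there. Ndufaf4 measured 10.09, 10.46, 10.14 and 9.90 and peaked in tumour 2, as did Ndufaf3. Ndufaf7 peaked there too on its brighter probe set, at 8.51, 8.74, 8.72 and 8.55, but a second one past the filter, at 7.84, 7.77, 7.80 and 7.95, was lowest in tumour 2 and highest in tumour 4. The NRF1 letters shown above are in both Ndufaf4 and Ndufaf5, and whether they bear on these values was not tested.

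Complex II, succinate dehydrogenase, links the citric acid cycle to the chain and pumps no protons. Its 4 genes had corrected deviations of -0.19, 0.17, -0.02 and 0.01 in tumours 1 to 4, and the median SD was 0.16. Sdhb, the iron-sulphur subunit, measured 11.23, 11.77, 11.58 and 11.34 (SD 0.24). Tumour 2 was highest and tumour 1 lowest. Sdha, the flavin subunit, measured 11.37, 11.56, 11.72 and 11.51 (SD 0.15) and peaked in tumour 3. The membrane anchors were Sdhc, nearly even at 11.56, 11.62, 11.47 and 11.57, and Sdhd, at 11.34, 11.77, 11.44 and 11.54 with tumour 2 apart. A second probe set of Sdhd gave 10.50, 10.79, 10.73 and 10.71, also lowest in tumour 1 and highest in tumour 2.

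Complex III showed the largest deviation of tumour 1, -0.36 log2 over 8 genes, against 0.16, 0.05 and 0.04 in tumours 2 to 4. After quantile normalization it was -0.30, against 0.12, -0.03 and 0.09. All 8 genes were higher in tumour 2 than in tumour 1, by a median of 0.50 log2. Uqcrc1, a core protein, measured 11.36, 12.00, 12.26 and 11.88 (SD 0.38), a 1.87-fold range with tumour 1 below all the others. Its partner Uqcrc2 was nearly even, at 11.67, 11.82, 11.76 and 11.80 (SD 0.06), so the 2 core genes did not share the size of the step. A second probe set of Uqcrc2 gave 10.10, 10.16, 9.85 and 9.85, with tumours 1 and 2 above the other pair, so the order of this gene is uncertain. Cyc1, which encodes cytochrome c1, measured 11.30, 11.95, 11.82 and 11.58 (SD 0.29). Uqcrfs1, the Rieske iron-sulphur protein, measured 11.81, 12.38, 12.20 and 12.35 (SD 0.26), and Uqcrh, the hinge protein, 12.09, 12.60, 12.85 and 12.60 (SD 0.32). In these 3 genes tumour 1 was below each of the others.

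**Figure D3:**
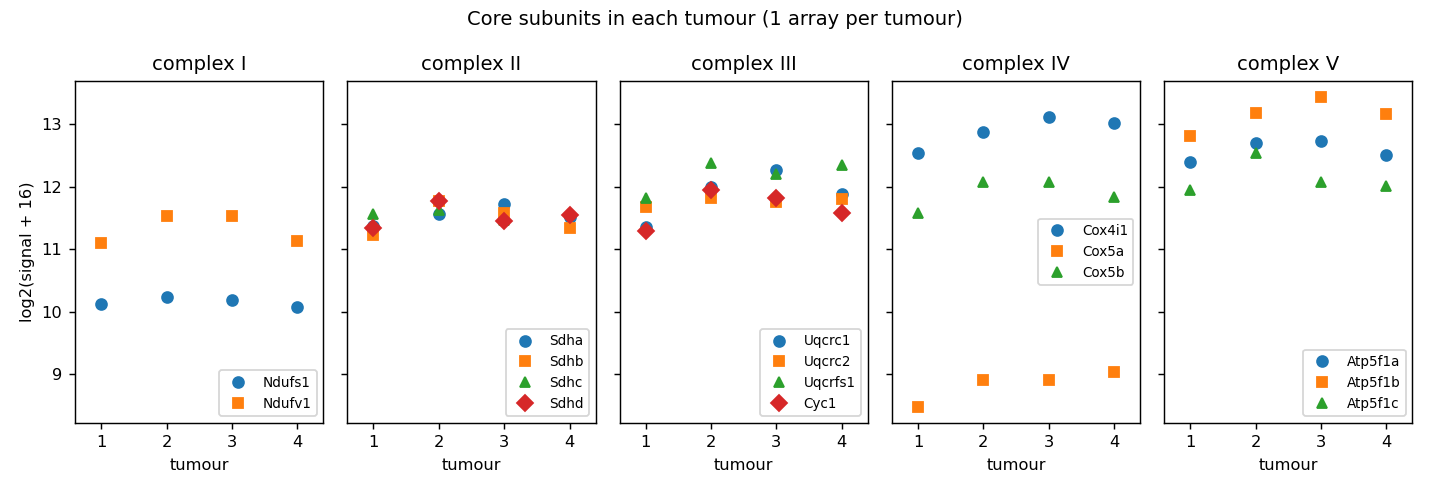
Log2(signal + 16) (y axis) of core subunits, in tumours 1 to 4 (x axis), 1 panel for each complex and 1 point for each array. Tumour 1 is the lowest for Sdha, Sdhb, Sdhd and all genes drawn of complexes III, IV and V; heights of different genes come from different probe sets and cannot be compared.

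Complex IV, cytochrome c oxidase, was the only complex with most of its peaks in tumour 3 in the values as deposited. Of 12 genes past the filter, 11 were lowest in tumour 1, 7 were highest in tumour 3 and 3 in tumour 2. The corrected deviations were -0.20, 0.07, 0.15 and -0.03. The peak in tumour 3 depended on scaling, since after quantile normalization 2 genes peaked in tumour 3 and 7 in tumour 2, the deviation of tumour 3 was 0.06, and that of tumour 4 changed sign to 0.01. Without tumour 1 the deviation of tumour 2 was -0.01. Tumour 1 remained the lowest for 9 of 12. The highest signal of any probe set was also in tumour 3, 17928 against 12739 to 14406 in the others. Tumour 3 also stood apart in the log2 ratio of 3′ to 5′ signal of beta-actin, a control of RNA integrity, at 0.48 against 0.30 in each other tumour. The part of either in these peaks was not tested beyond the 2 scalings.

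Cox4i1, the main form of subunit 4, measured 12.54, 12.86, 13.11 and 13.01 (SD 0.25). Tumour 1 was lowest and tumours 3 and 4 were close together. Cox5a measured 8.47, 8.90, 8.91 and 9.04 (SD 0.25) and Cox5b 11.58, 12.07, 12.07 and 11.84 (SD 0.23), again with tumour 1 lowest. Cox8a, the widely expressed form of subunit 8, measured 12.72, 13.02, 13.17 and 13.00. Its range of 0.46 fell to 0.16 after quantile normalization. Cox6a1 and Cox6b1 measured 12.14, 12.36, 12.42 and 12.28, and 11.77, 12.07, 12.09 and 11.87. Both had tumours 2 and 3 on top. Ndufa4 measured 12.48, 12.72, 12.70 and 12.56, and Cox7a2l, a factor that joins complexes III and IV into supercomplexes, 12.05, 12.10, 12.28 and 12.15. The ranges of Cox6a1, Ndufa4 and Cox7a2l were 0.29, 0.24 and 0.23, and 0.11, 0.12 and 0.12 after quantile normalization.

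Ndufa4l2, a paralogue of Ndufa4 known to be induced by low oxygen, was the only gene of complex IV past the filter that was not lowest in tumour 1. It measured 8.04, 7.19, 8.01 and 8.68 (SD 0.61), a 2.81-fold range, with tumour 4 highest and tumour 2 lowest and under the filter level. The range was 0.85 log2 without tumour 4 and 0.67 without tumour 2, so it reached 2-fold only with both. Cox4i2, the form of subunit 4 also linked to low oxygen, had the same highest and lowest tumours, at 7.34, 6.67, 7.73 and 8.22 (SD 0.66), but under the filter level in 3 of 4 tumours. Hypoxia genes were highest in tumour 4 too, in 8 of 9 past the filter, with a corrected deviation of 1.07 and a summed signal of 31743 against 18298 to 19845 in the others. Among them Egln3, an oxygen sensor, measured 8.77, 8.25, 8.49 and 11.12, and Car9, a carbonic anhydrase, 7.36, 7.25, 7.59 and 9.39. Car9 was under the filter level in tumours 1 to 3 and passed only through tumour 4, so its place in this count supports nothing. Whether these 2 isoforms and the hypoxia genes share a source was not tested.

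The other isoforms of complex IV are known from muscle, heart, brown fat or testis, and all lay under the filter. Cox7a1, a muscle form, measured 6.48, 6.22, 6.47 and 7.33 (SD 0.49) and was highest in tumour 4. Cox8b, a form of muscle and brown fat, measured 6.05, 5.24, 4.36 and 4.54 (SD 0.77) and was highest in tumour 1. Its range of 1.69 log2 became 3.20 with a pseudocount of 1 and 0.74 with one of 64, which shows how little such a low signal fixes a fold. Cox6a2, also of muscle, stayed between 4.73 and 5.24. The testis forms Cox6b2 and Cox7b2 lay between 5.95 and 7.00 and between 5.93 and 6.70. Of 11 skeletal muscle markers 2 passed the filter, Myh1, even at 12.39 to 12.48, and Atp2a1, at 7.67 to 8.16. The summed signal of the list was 6250 to 6622 in all tumours, but most of it came from Myh1. The evenness of the sum is thus largely that of 1 probe set. The creatine kinase gene Ckm was at 6.38 to 6.92 and the brown fat marker Ucp1 at 4.23 to 6.09. Fewer cells of a type and less RNA per cell cannot be told apart in such bulk samples.

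**Figure D4:**
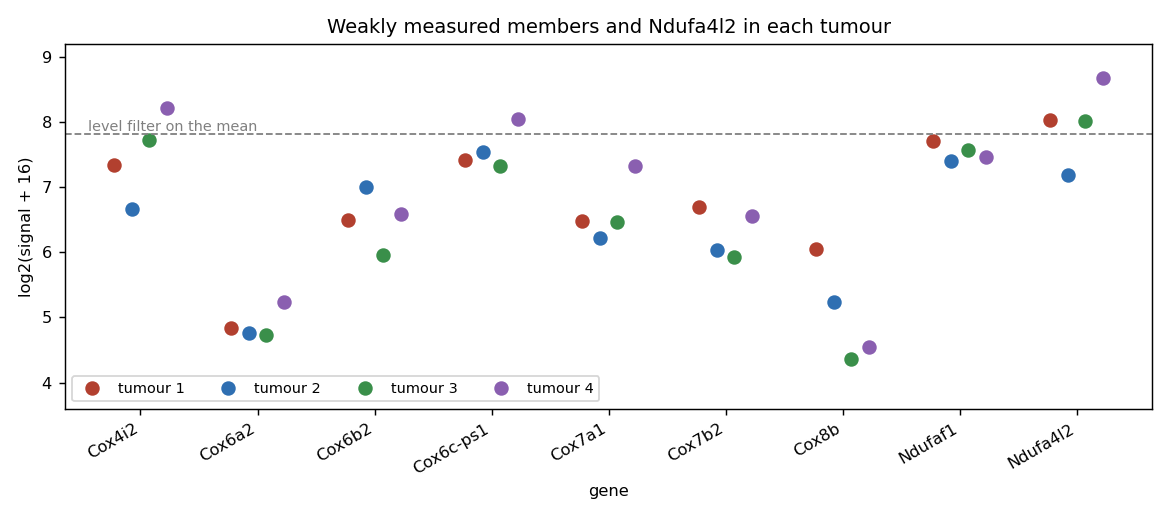
Log2(signal + 16) (y axis) of the 8 members under the level filter and of Ndufa4l2 (x axis), 1 point for each tumour. The dashed line marks the filter on the mean, 7.81; tumour 4 is highest for Cox4i2, Cox7a1, Cox6a2, Cox6c-ps1 and Ndufa4l2.

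Complex V had corrected deviations of -0.22, 0.13, 0.08 and -0.11 over 16 genes, or -0.14, 0.10, 0.01 and -0.06 after quantile normalization. Of these genes 11 were lowest in tumour 1, 5 in tumour 4, and 10 were highest in tumour 2. The 5 Atp5f1 genes, which include those of the catalytic subunits, were all lowest in tumour 1. Atp5f1b, the catalytic beta subunit, measured 12.81, 13.17, 13.44 and 13.16 (SD 0.26), a range of 0.63 that was 0.28 after quantile normalization. Atp5f1a, the alpha subunit, measured 12.39, 12.70, 12.73 and 12.50 (SD 0.16). Tumours 2 and 3 were level in it. Atp5f1c, the gamma subunit of the rotor, was high in tumour 2 alone, at 11.94, 12.54, 12.07 and 12.01 (SD 0.27), and without that tumour its range was 0.13.

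Atp5if1, which stops the ATP synthase from running backwards, had the largest SD of the complex. It measured 10.69, 11.41, 11.54 and 11.08 (SD 0.38), a range of 0.85 with tumour 1 lowest. Its 2 other probe sets were weak, at 6.99 to 7.24 and 5.70 to 6.59, and the first of them was also lowest in tumour 1. Atp5mk, a small membrane subunit, measured 11.93, 12.54, 12.42 and 12.12 (SD 0.28) with the same tumour lowest. The 6 genes of the membrane part and the 4 of the peripheral stalk deviated less in tumour 1 than the Atp5f1 genes did, at -0.12 and -0.06 against -0.24. Atp5pf of the stalk was almost level, at 11.97, 11.93, 12.04 and 11.86. This split of complex V was made after the values were seen.

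Several probe sets of 1 gene give a check at the level of probes, though they share the RNA and the array. Only 4 members, Ndufaf7, Ndufv3, Sdhd and Uqcrc2, had 2 probe sets past the filter. The direction of tumour 2 against tumour 1 was the same on both in 3 of the 4, and the highest tumour in 2. The lowest tumour, on which the main count rests, was the same in only 1 of the 4, Sdhd. The steps in the other members thus rest on 1 probe set past the filter each.

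Members with and without a motif differed little in the step from tumour 1 to tumour 2. Its median was 0.32 log2 in 31 genes past the filter with YY1 letters and 0.32 in 41 without. It was 0.30 in 21 with ETS/GABP letters against 0.35 in 51 without, and 0.28 in 8 with NRF1 letters against 0.32 in 64 without.

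Other mitochondrial gene lists shared part of the pattern. The 73 genes of the mitochondrial ribosome, which translates the subunits encoded in mitochondrial DNA, had corrected deviations of -0.09, 0.20, 0.06 and -0.11, with 44 highest in tumour 2 and 39 lowest in tumour 1. The 14 citric acid cycle genes deviated by -0.02, 0.16, 0.04 and -0.08, with 8 highest in tumour 2. The tumour 2 values of both lists were thus like those of the respiratory genes, while in tumour 1 the respiratory genes deviated more. The 30 assembly factors outside the rule lay near zero, at -0.02, 0.03, -0.01 and -0.04. Electron carriers and feeders such as Etfb, a subunit of the electron transfer flavoprotein, deviated by -0.13, 0.00, 0.02 and 0.17 over 13 genes. Etfb itself measured 9.58, 10.52, 10.57 and 10.28, with tumour 1 low. The 8 carrier genes past the filter deviated by -0.06, 0.06, 0.10 and -0.05, among them the phosphate carrier Slc25a3 at 12.50, 12.92, 13.04 and 12.89.

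Cell type markers differed between tumours by larger amounts, and none of the lists below had the full order of the respiratory genes. Luminal genes shared their lowest tumour and proliferation genes their highest. Luminal epithelial genes had corrected deviations of -0.81, 0.16, 0.31 and 0.30 over 13 genes, with 12 lowest in tumour 1, and their summed signal was 37405 there against 67597 to 76871 elsewhere. Macrophage genes deviated by 1.15, 0.05, -1.26 and -0.03, with 8 of 9 highest in tumour 1 and 8 lowest in tumour 3, and a summed signal of 16313, 9137, 4871 and 8699. Proliferation genes deviated by 0.59 in tumour 2, with 11 of 12 highest there, against -0.11, -0.25 and -0.34 in tumours 1, 3 and 4, and summed to 14642 in tumour 2 against 10359 to 10732. In tumour 4 the respiratory genes deviated by -0.09, beside the 0.30 of the luminal genes, but a size under 0.1 log2 counts here as no call. Basal and myoepithelial genes deviated by 0.05, 0.12, -0.90 and 0.41, with 5 of 8 lowest in tumour 3. Endothelial genes deviated by 0.43, -0.52, 0.46 and -0.47 over 4 genes. Fibroblast genes deviated by -1.68 in tumour 4, where all 9 were lowest, against 0.70, 0.18 and 0.81 in tumours 1 to 3. The part of cell composition and of cell division in the respiratory steps was not tested. Of the RNA integrity controls, the log2 ratio of 3′ to 5′ signal was 0.03, 0.04, -0.02 and 0.01 for GAPDH and 0.30, 0.30, 0.48 and 0.30 for beta-actin in tumours 1 to 4, lowest and highest in tumour 3.

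**Figure D5:**
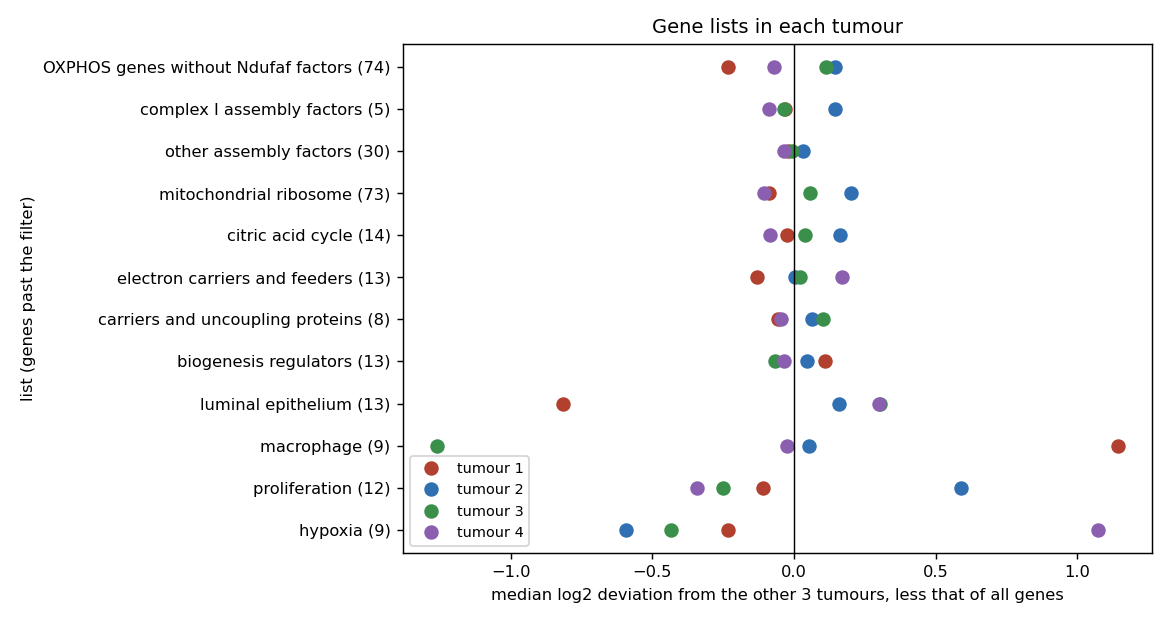
Median log2 deviation of each gene list from the mean of the other 3 tumours, less the same median over all genes (x axis), for lists with the number of genes past the filter in brackets (y axis), 1 point for each tumour. Oxidative phosphorylation genes without the assembly factors span -0.23 to 0.14, far less than luminal (-0.81 to 0.31), macrophage (-1.26 to 1.15), proliferation and hypoxia lists.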

How the data were processed

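The authors deposited 1 linear intensity value per probe set and tumour; per the labels' protocols, 8 µg of total RNA was primed at the poly(A) tail and biotin-labelled. The scanner software and background step were not given in the sources used here. Means after trimming 2% from each end were equal (499.98 on each array), so the arrays already share a level. Intensities of 31099 probe sets were taken as log2(value + 16) with no further scaling. The probe table named 21268 probe sets, of which 20826 named 1 gene. The probe set of highest mean stood for a gene, and 9403 of 14217 genes passed the level filter. All 97 member probe sets matched RefSeq GRCr8 by gene identifier, and no member symbol changed. Members, lists and motifs were chosen with earlier results of these data known. Named genes were core subunits, isoforms, the 3 of largest SD per complex, the 3 furthest either way per tumour, and those with a 2-fold range or disagreeing probe sets; Ndufa5, Ndufaf1, Ndufaf3, Ndufaf7, Ndufb7, Ndufv3, Atp5pf, Cox6c-ps1 and Cox7b2 were added after their values were seen. Alternatives were quantile normalization, a median shift, pseudocounts of 1 and 64, no filter, the brighter 25%, averaged probe sets, and leaving out each tumour. Functions were tested on simulated data. The number of arrays limits the precision. Python 3.11.15, pandas 2.3.3 and numpy 2.4.6 were used.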

Additional observations from a re-analysis of the deposited data

How the results depend on the processing

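Under all 11 alternatives that gave a value, the members' corrected deviation was negative in tumours 1 and 4 and positive in tumours 2 and 3. The median shift is no check of this, since a constant added to an array cancels in the corrected deviation. It ranged over the leave-one-out settings from -0.29 to -0.18 in tumour 1, from 0.08 to 0.20 in tumour 2, from 0.06 to 0.17 in tumour 3 and from -0.17 to -0.02 in tumour 4. Members highest in tumour 3 numbered 24, or 13 after quantile normalization, and 24 to 60 when a tumour was left out, the last without tumour 2. Members lowest in tumour 4 numbered 18, and 18 to 58 when a tumour was left out, the last without tumour 1. The number with a 2-fold range was 1, or 2 after a median shift, 5 with no level filter, 0 in the brighter 25%, and 0 to 1 when a tumour was left out. Fewer tumours give fewer places for a peak and a smaller range, and a changed filter changes which genes are counted. The shift to a common median moves all genes, by up to 0.13 log2 between tumours 1 and 3. Counts of members under it carry that offset, and the corrected deviations cannot change. Of 731 further values, for complexes, named genes and other counts, 72 moved. The sign differed in 20, all deviations of a complex or of the assembly factors that were under 0.1 log2 as reported, which counts here as no call. Some passed that size on the other side. Without tumour 1, complex III in tumour 4 went from 0.04 to -0.12. Without tumour 2, complex II in tumour 3 went from -0.02 to 0.102. The assembly factors then went from -0.03 to 0.105 in tumour 1 and from -0.04 to 0.109 in tumour 3. The members' own deviations in tumours 3 and 4, 0.096 and -0.087, are no calls either. None of the 20 was a deviation of complexes I to V in tumour 1, and 5 were of the assembly factors. Under quantile normalization the sign changed for complex III in tumour 3, from 0.05 to -0.03, and for complex IV in tumour 4, from -0.03 to 0.01. With no level filter the assembly factors went from -0.03 to 0.08 in tumour 1. No paired analysis was possible because the tumours form 1 group. Weak members, and steps under 0.1 log2, are at the limit of what 1 array each can show.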

Other observations

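Regulators of mitochondrial biogenesis, taken as a list, did not share the order of the respiratory genes, though single regulators did. The 13 past the filter had corrected deviations of 0.11, 0.05, -0.07 and -0.03 in tumours 1 to 4. Lowest in tumour 1 were 3 of them, Esrra, Yy1 and Twnk, against 36.2% of all genes, and 5 were highest there, against 28%. Gabpa, the DNA-binding part of the ETS factor GABP, measured 10.52, 10.15, 9.78 and 9.72, and Nrf1 9.13, 8.64, 8.76 and 8.78, both highest in tumour 1. Polg, the mitochondrial DNA polymerase, measured 10.71, 9.91, 10.05 and 10.11, while the helicase gene Twnk measured 8.35, 8.91, 9.06 and 9.29. Yy1 varied little, at 11.24, 11.39, 11.39 and 11.29, but was lowest in tumour 1 with tumours 2 and 3 on top. Esrra, an oestrogen-related receptor, measured 8.36, 8.70, 8.62 and 8.53, which is the commonest order of the respiratory genes. The transcription factor Tfam was nearly even, at 10.89, 10.99, 10.74 and 10.79. The coactivators Ppargc1a and Ppargc1b were under the level filter, at 7.10 to 7.67 and 7.45 to 8.10.

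The probe table also named COX1 and COX2, subunits of complex IV encoded in mitochondrial DNA, which were picked out after their values were seen. COX1 measured 13.29, 13.49, 13.83 and 13.52, and COX2 13.48, 13.60, 14.12 and 13.76. Both were lowest in tumour 1 and highest in tumour 3. Among the uncoupling proteins, Ucp2 measured 12.06, 12.62, 12.94 and 12.44, also lowest in tumour 1 and highest in tumour 3, and Ucp3 stayed between 8.41 and 8.66.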
